A study of Mus musculus with 11 samples.

Results

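The genes described here had the largest rises after knockdown of the long intergenic non-coding RNA Pint with antisense oligonucleotides (ASO), once immediate-early genes were set aside. They are Plcxd2, Rnf225, Pld4, Ephx3 and Morrbid, 5 of the 16147 genes tested. They were read on the 6 probe sets whose annotation gives 1 of them as its only symbol, Morrbid having 2 such probe sets, out of 26038 probe sets tested. Because the genes were picked by their difference between Pint ASO and control ASO, that difference is given below as a description and without a test. All 6 probe sets passed the filter on low values (a log2 value over 6 on 2 or more arrays of some group), and on each of them both control ASO arrays were already over that limit.

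The cells of all 4 groups were mouse embryonic fibroblasts of p53LSL/LSL genotype on a C57BL/6 x 129/SvJ background, in which p53 is held silent until Cre removes a stop cassette. All cells received Cre adenovirus (24 h, multiplicity of infection of 5) and so had p53 restored, were then transfected, and 24 h later were given 150 nM doxorubicin, a DNA-damaging drug that activates p53, for 12 h. No arrays without p53 restoration, without transfection or without doxorubicin were analysed here. The groups were Pint ASO (a pool of oligonucleotides, 3 arrays), control ASO (non-targeting, 2 arrays), p53 siRNA (3 arrays) and control siRNA (3 arrays), and values are log2 intensities per probe set, so that a difference of 1 is a doubling.

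Array medians lay between 7.31 and 7.38. All 17 fibroblast markers passed the filter, with group means in Pint ASO arrays running from 6.19 for Fap to 14.28 for Vim. The Pint probe set (Lncpint) read 8.60, 8.48 and 8.55 on the Pint ASO arrays and 10.41 and 10.23 on the control ASO arrays. The difference was -1.78 (SE 0.12, limma, adjusted p = 2.94e-05), so the ASO groups were as labelled. Control ASO was itself above control siRNA by 0.71 (SE 0.12, adjusted p = 0.0137). Measured against control siRNA, the Pint ASO difference was smaller, at -1.07 (SE 0.11). The siRNA target itself was not analysed here, but Pint, a p53-induced transcript, was also lower with p53 siRNA than with control siRNA (-0.54, SE 0.11, adjusted p = 0.00673).

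The genes belong to unrelated families. Plcxd2 carries the X catalytic domain of phosphatidylinositol-specific phospholipase C, the enzyme class that cuts membrane phosphoinositides into second messengers, without the remaining domains of the classical enzymes. Rnf225 is a RING finger gene, named for the zinc-binding fold common among ubiquitin ligases. Pld4 has the sequence of a phospholipase D but works in endolysosomes as an exonuclease that trims single-stranded nucleic acid, which limits signalling by nucleic acid receptors in immune cells. Ephx3, called Abhd9 in older annotation, is an epoxide hydrolase that opens epoxy lipids and is best known from the epidermal barrier. Morrbid, older name Gm14005, is a long non-coding RNA known in short-lived myeloid cells as a repressor of its neighbour Bcl2l11, which encodes the death-promoting protein BIM.

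In the GRCm38.p6 annotation the 5 genes lie on 5 chromosomes, with Plcxd2 at chr16:45959261-46010413, Rnf225 at chr7:12927416-12931072, Pld4 at chr12:112760446-112768986, Ephx3 at chr17:32183770-32189470 and Morrbid at chr2:128298663-128429351. The first 4 are protein coding and Morrbid is annotated as lncRNA. All 5 were matched in the RefSeq promoter table (GRCm38.p6, 250 bases before to 50 after an annotated start). The promoter windows of 4 of them are printed, that of Plcxd2, the richest in CpG, and those that held a motif match. They are written 5′ to 3′ on the gene's strand, and capitals mark the motif matches, namely an amino acid response element in Pld4 and an AP-1 site in Ephx3 and in Morrbid.
Plcxd2: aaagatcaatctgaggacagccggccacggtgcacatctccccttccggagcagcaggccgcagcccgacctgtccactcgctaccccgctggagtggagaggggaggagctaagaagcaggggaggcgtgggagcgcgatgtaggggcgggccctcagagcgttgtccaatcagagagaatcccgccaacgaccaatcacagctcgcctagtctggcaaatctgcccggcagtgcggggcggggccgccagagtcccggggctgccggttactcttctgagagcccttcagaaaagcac
Pld4: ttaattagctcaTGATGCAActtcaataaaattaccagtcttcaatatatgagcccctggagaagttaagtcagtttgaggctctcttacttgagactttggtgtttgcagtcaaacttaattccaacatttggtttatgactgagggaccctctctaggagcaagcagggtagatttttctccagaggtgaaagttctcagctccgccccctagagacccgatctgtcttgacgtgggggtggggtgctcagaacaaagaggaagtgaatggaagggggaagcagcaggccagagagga
Ephx3: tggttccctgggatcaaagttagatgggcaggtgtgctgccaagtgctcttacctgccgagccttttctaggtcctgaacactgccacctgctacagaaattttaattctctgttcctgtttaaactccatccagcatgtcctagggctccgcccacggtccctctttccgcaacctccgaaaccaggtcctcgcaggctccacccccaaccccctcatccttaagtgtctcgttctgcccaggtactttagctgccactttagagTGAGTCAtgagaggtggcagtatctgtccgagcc
Morrbid: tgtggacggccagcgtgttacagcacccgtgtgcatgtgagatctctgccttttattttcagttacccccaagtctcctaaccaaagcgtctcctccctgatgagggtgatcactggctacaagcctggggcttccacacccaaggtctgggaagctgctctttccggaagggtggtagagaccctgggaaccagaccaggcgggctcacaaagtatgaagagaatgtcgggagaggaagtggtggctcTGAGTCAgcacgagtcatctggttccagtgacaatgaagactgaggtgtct
The windows are chr16:46010364-46010663 (minus strand), chr12:112760405-112760704 (plus strand), chr17:32189421-32189720 (minus strand) and chr2:128429302-128429601 (minus strand).

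Both strands of each window were searched for 7 motifs, the cyclic AMP response element (TGACGTCA), the AP-1 site (TGANTCA), the amino acid response element (TGATGNAA), the EGR site (GCGNGGGCG), the TATA box (TATAAA), the CArG box and the p53 site decamer. Of the 32851 promoters in the table, 1.79%, 7.81%, 3.97%, 5.55%, 13.6%, 1.63% and 8.36% hold them, in that order. The Pld4 window held TGATGCAA, its first base at position -238 from the start used by the table. TGAGTCA began 17 bases after the start in Ephx3 and at the last base before it in Morrbid, read on both strands because the AP-1 motif is its own reverse complement. No match overlapped another, and the windows of Plcxd2 and Rnf225 held none of these letters. A match describes the sequence and does not show a bound site. The Plcxd2 window was the richest in CpG among the 5, with 21 CpG and 64.3% GC, against a median over all promoters of 7 CpG and 52.7% GC. Rnf225 had 5 CpG, Pld4 3, and Ephx3 and Morrbid 8 each.

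Plcxd2 had the largest rise of any named gene. It read 10.36, 10.55 and 10.40 on the Pint ASO arrays, against 8.31 and 8.23 on the control ASO arrays. It read 8.69, 8.64 and 8.62 with p53 siRNA, against 9.02, 8.91 and 8.87 with control siRNA. The 4 groups did not overlap with each other at any step, and their order was Pint ASO, control siRNA, p53 siRNA, control ASO. The Pint ASO mean exceeded that of control ASO by 2.17 (SE 0.07), a 4.49-fold difference, and that of control siRNA by 1.51 (SE 0.06). Control ASO differed from control siRNA by -0.66 (SE 0.07), and Plcxd2 was the only one of the 5 genes with control ASO arrays wholly below control siRNA arrays.

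Rnf225 was next among them. Its values were 9.46, 9.53 and 9.50 with Pint ASO, against 7.80 and 7.60 with control ASO, a difference of 1.80 (SE 0.13) or 3.48-fold. They were 7.01, 7.22 and 7.50 with p53 siRNA, against 7.22, 7.16 and 7.34 with control siRNA. The Pint ASO arrays spanned only 0.07, and the siRNA groups overlapped. Control ASO stood above control siRNA by 0.45 (SE 0.13), and Pint ASO stood above control siRNA by 2.26 (SE 0.11), more than for the other 4 genes.

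Pld4 and Ephx3 were low in all groups but Pint ASO. Pld4 read 8.37, 8.24 and 8.44 with Pint ASO, against 6.77 and 6.75 with control ASO, a difference of 1.59 (SE 0.11) or 3.01-fold. It read 6.55, 6.11 and 6.34 with p53 siRNA, against 6.53, 6.61 and 6.47 with control siRNA, where the arrays overlapped. Both siRNA groups and control ASO thus lay within 1 log2 unit of the filter limit of 6. Ephx3 read 8.37, 8.24 and 8.20 with Pint ASO, against 6.75 and 6.83 with control ASO, a difference of 1.48 (SE 0.16) or 2.79-fold. It read 5.90, 6.48 and 6.48 with p53 siRNA, against 6.30, 6.49 and 6.34 with control siRNA, so 1 p53 siRNA array fell under the limit. For both genes the order was Pint ASO, control ASO, control siRNA, p53 siRNA, and the last 2 did not differ beyond their spread.

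The probe sets of Morrbid differed in the size of the change. The probe set annotated to transcript NR_028590 read 9.18, 9.34 and 9.39 with Pint ASO, against 8.21 and 7.71 with control ASO, a difference of 1.34 (SE 0.14) or 2.53-fold. It read 7.74, 8.08 and 7.93 with p53 siRNA, against 7.95, 7.97 and 7.97 with control siRNA. The probe set annotated to NR_028591 read 9.74, 9.71 and 9.77 with Pint ASO, against 9.28 and 9.38 with control ASO, a difference of 0.41 (SE 0.09) or 1.33-fold. It read 9.36, 9.15 and 9.29 with p53 siRNA, against 9.19, 9.38 and 9.11 with control siRNA. On both probe sets the 3 Pint ASO arrays were highest and the other 3 groups overlapped with each other. The mean of the 2 probe sets differed by 0.88, and the control ASO arrays of the first had an SD of 0.35, the widest in that group among the 6 probe sets.

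**Figure D1:**
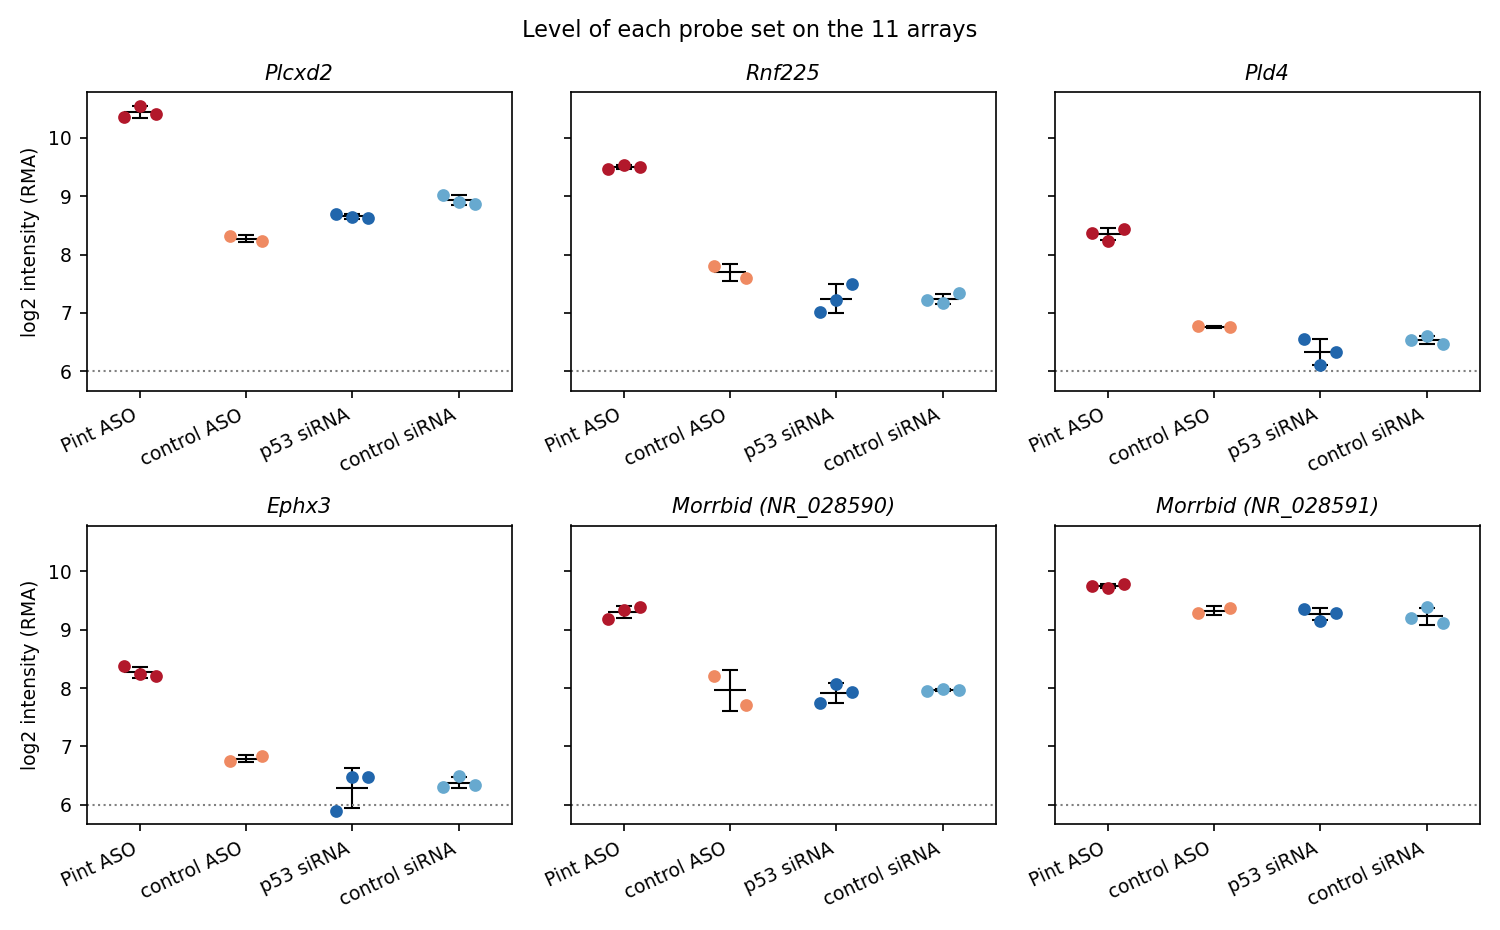
Log2 intensity (vertical axis) of the 6 probe sets on each of the 11 arrays, by group, with the group mean and SD in black and the filter limit of 6 as a dotted line. The 3 Pint ASO arrays lie above the other 8 arrays in every panel, with the smallest gap (0.32) for the NR_028591 probe set of Morrbid.

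Across groups, the lowest Pint ASO array stood above the highest of the other 8 arrays for all 6 probe sets. The gap was 1.66 for Rnf225, 1.47 for Pld4, 1.37 for Ephx3, 1.34 for Plcxd2, 0.97 and 0.32 for the probe sets of Morrbid. The choice of genes largely fixes the part of this pattern that concerns control ASO. The Pint ASO arrays that entered the choice are also those set against the siRNA groups, so that part is a description too. Over all probe sets 18.2% had Pint ASO arrays wholly above control ASO arrays. A rise of at least 1 was found on 5 of the 6 probe sets, and on 44 of all 26038 (0.169%). The choice of genes by the size of this rise settles the first of these counts.

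At the edge of the choice, Morrbid with 1.34 was the last gene inside, and H1f1, a linker histone gene, with 1.27 and Hey2, a transcriptional repressor downstream of Notch, with 1.26 were the first outside. The immediate-early genes Arc (2.04, after Plcxd2), Csrnp1 (1.29) and Egr2 (1.28, both after Morrbid) ranked among them. A further 7 probe sets that carry no gene name rose at least as much as Morrbid, up to 2.06, and are not described.

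The 2 control groups did not give the same level for every gene. Control ASO arrays stood wholly above control siRNA arrays for Rnf225 (0.45), Pld4 (0.22, SE 0.11) and Ephx3 (0.41, SE 0.16), wholly below them for Plcxd2, and overlapped with them on both Morrbid probe sets (0.00, SE 0.14, and 0.10, SE 0.09). Over all probe sets, 16.0% lay wholly above and 16.6% wholly below in this comparison. The kind of oligonucleotide cannot be told apart from anything else that differed between the ASO and siRNA transfections. Measured against control siRNA in place of control ASO, the Pint ASO level was higher by 1.81 (SE 0.10) for Pld4, 1.89 (SE 0.14) for Ephx3, and 1.34 (SE 0.13) and 0.51 (SE 0.08) for Morrbid. These differences are a description and no independent support, since the same Pint ASO arrays entered the choice of genes.

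Whether the genes also responded to loss of p53 was asked with p53 siRNA and control siRNA, whose arrays were not used to choose them. The probe set of Plcxd2 passed the test, 1 of 6, beside 16.9% of all probe sets (7.97% higher and 8.96% lower). Plcxd2 fell by 0.28 (SE 0.06, limma, adjusted p = 0.0131), and its 3 p53 siRNA arrays lay below all 3 control siRNA arrays, as did those of 18.6% of probe sets. The call was lost without control siRNA replicate 1 (-0.24, adjusted p = 0.0532) and without p53 siRNA replicate 3 (-0.26, adjusted p = 0.0507). Pld4 differed by -0.21 (SE 0.10, adjusted p = 0.226) and passed without p53 siRNA replicate 1 (-0.32, adjusted p = 0.0445). Rnf225 differed by 0.00 (SE 0.11, adjusted p = 0.995), Ephx3 by -0.09 (SE 0.14, adjusted p = 0.738), and Morrbid by -0.04 (SE 0.13, adjusted p = 0.856) and 0.04 (SE 0.08, adjusted p = 0.799).

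**Figure D2:**
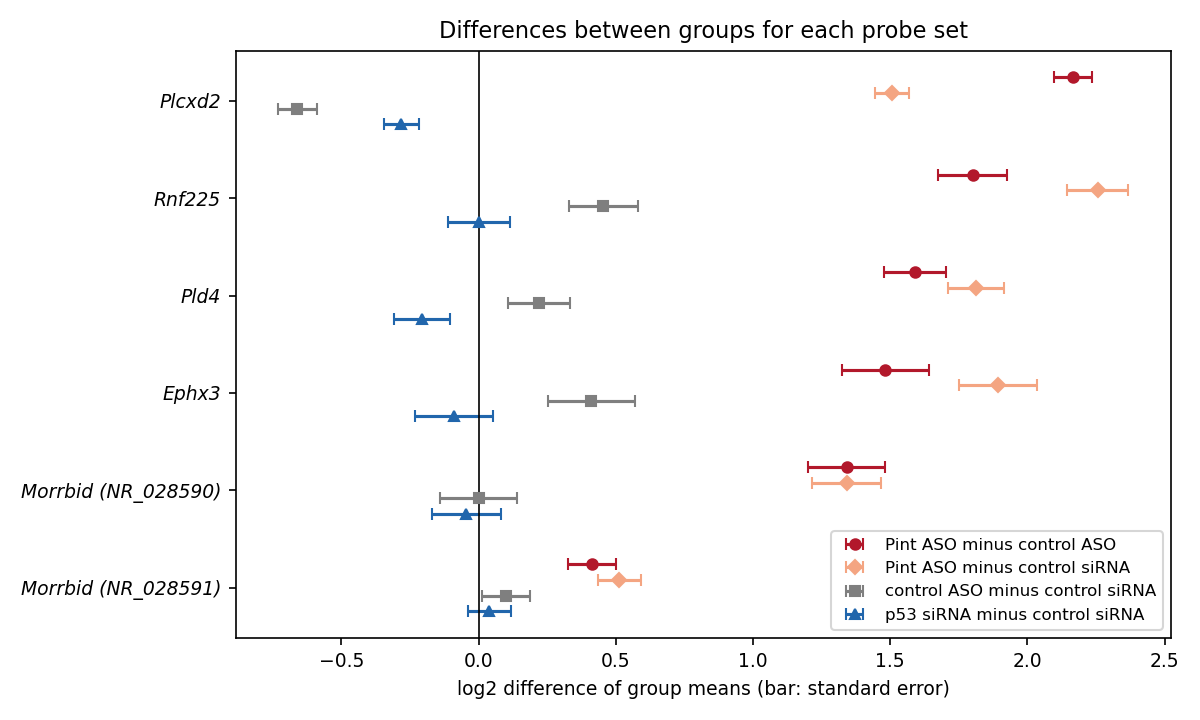
Log2 difference of group means (horizontal axis, bars are standard errors) for the 6 probe sets in 4 comparisons. Both Pint ASO differences lie to the right for all 6, the p53 siRNA differences lie near 0 except for Plcxd2 (-0.28) and Pld4 (-0.21), and the control ASO difference is below 0 for Plcxd2 (-0.66).

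The rises were set beside the other measured genes of the same families. Choosing the genes by the size of the Pint ASO rise places each above its relatives, so that gap is a description. Of 15 other phospholipase C genes tested, 3 were higher and 2 lower with Pint ASO, and the median difference was 0.05, against 0.01 over all 16147 genes. Of all genes tested 25.2% passed with Pint ASO, 11.3% higher and 13.9% lower (of all probe sets 19.1%, with 8.49% higher and 10.7% lower). Plcxd1, of the same subfamily as Plcxd2, was higher by 0.31 (SE 0.08, adjusted p = 0.0278), at 8.09 ± 0.11 with Pint ASO (SD, n = 3) and 7.78 ± 0.00 with control ASO (SD, n = 2, the values being identical in the deposited table). That call was lost when any of 4 single arrays was left out (adjusted p up to 0.110). The calls of the other 2 higher genes, the inactive phospholipase Plcl2 (0.38) and the immune-cell enzyme Plcg2 (0.21), were lost without any of 4 and any of 10 arrays (adjusted p up to 0.176 and 0.205). Plcb1, which acts below G protein-coupled receptors, was lower by -0.34 (SE 0.06, adjusted p = 0.00441) and Plce1, which acts below Ras proteins, by -0.31 (SE 0.06, adjusted p = 0.00482). Plcxd3 stayed under the filter limit. With p53 siRNA 2 of the 15 were higher and 3 lower, the largest being Plcd4 (-0.62, SE 0.07, adjusted p = 0.000239), Plcg2 (-0.36, SE 0.05, adjusted p = 0.00156) and Plcb4 (0.35, SE 0.06, adjusted p = 0.00395).

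Among the relatives of Pld4, Pld3, the other endolysosomal exonuclease of the family, was lower with Pint ASO, at 11.51 ± 0.04 (SD, n = 3), than with control ASO, at 11.92 ± 0.07 (SD, n = 2), by -0.42 (SE 0.05, adjusted p = 0.000635). None of the other 4 phospholipase D genes passed in limma in that comparison (0 with an unadjusted p under 0.05). With p53 siRNA, Pld1, one of the lipid-cleaving enzymes, was lower by -0.45 (SE 0.06, adjusted p = 0.00085), and Pld5 was lower by -0.28 (SE 0.07, adjusted p = 0.0204), a call lost without any of 4 arrays (adjusted p up to 0.0771).

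The genes of endosomal nucleic acid sensing, the pathway that Pld4 restrains in immune cells, were read as a further list. Of 15 tested, 4 were lower and 1 higher with Pint ASO (9 with an unadjusted p under 0.05), with a median of -0.15. Irf7, the transcription factor that drives interferon production, was lower by -0.62 (SE 0.05, adjusted p = 6.08e-05), the receptor escort Unc93b1 by -0.36 (SE 0.07, adjusted p = 0.00679) and the chaperone Hsp90b1 by -0.25 (SE 0.05, adjusted p = 0.00904), and Pld3 is the other of the 4. The signalling ligase Traf6 was higher by 0.35 (SE 0.07, adjusted p = 0.0063). Without control ASO replicate 2 Unc93b1 did not pass (-0.26, adjusted p = 0.0565). With p53 siRNA 4 of the 15 were higher and none lower (7 with an unadjusted p under 0.05), led by Irf7 (0.63, SE 0.04, adjusted p = 1.59e-05) and the receptor Tlr3 (0.56, SE 0.10, adjusted p = 0.00487). The receptors Tlr7, Tlr8 and Tlr13 stayed under the filter.

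Among the relatives of Ephx3, Ephx1, the microsomal epoxide hydrolase of xenobiotic metabolism, was lower with Pint ASO, at 11.96 ± 0.07 (SD, n = 3), than with control ASO, at 12.70 ± 0.05 (SD, n = 2), by -0.74 (SE 0.06, adjusted p = 6.31e-05). Ephx2 and Ephx4 stayed under the filter. Of the 9 epoxide and epoxy lipid genes tested, 4 were lower and 2 higher with Pint ASO, with a median of 0.03. The lower ones were Ephx1, the cytochrome P450 genes Cyp2j9 (-0.57, SE 0.07, adjusted p = 0.000708) and Cyp2j6 (-0.42, SE 0.06, adjusted p = 0.00189), and the leukotriene hydrolase Lta4h (-0.40, SE 0.08, adjusted p = 0.00571). The higher ones both belong to ceramide handling in the epidermis, the lipoxygenase Aloxe3 (0.48, SE 0.09, adjusted p = 0.00392) and the acyltransferase Pnpla1 (0.42, SE 0.08, adjusted p = 0.00676). Pnpla1 did not pass without control ASO replicate 1 (0.37, adjusted p = 0.0569). With p53 siRNA 4 of the 9 were lower and none higher (4 with an unadjusted p under 0.05), the largest being Aloxe3 (-0.80, SE 0.08, adjusted p = 9.45e-05) and Cyp2j9 (-0.40, SE 0.07, adjusted p = 0.00237).

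Of 8 other small RING finger genes tested, 1 passed with Pint ASO, Rnf227, higher by 0.39 (SE 0.09, adjusted p = 0.0169). It did not pass without control ASO replicate 1 (0.21, adjusted p = 0.0856) or Pint ASO replicate 3 (0.36, adjusted p = 0.0507). The list had a median of 0.17 with Pint ASO, and none passed with p53 siRNA in limma (0 with an unadjusted p under 0.05). Of 10 other long non-coding RNA genes, 3 were lower with Pint ASO, the targeted Lncpint, Meg3 (-0.76, SE 0.07, adjusted p = 0.000107) and Dnm3os (-0.66, SE 0.08, adjusted p = 0.000508). Of the same list 2 were higher, Pvt1 by 0.32 (SE 0.07, adjusted p = 0.0107) and Tug1 by 0.18 (SE 0.06, adjusted p = 0.047). Pvt1 did not pass without control ASO replicate 2 (0.29, adjusted p = 0.0692), and Tug1 did not without any of 10 arrays (adjusted p up to 0.147).

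**Figure D3:**
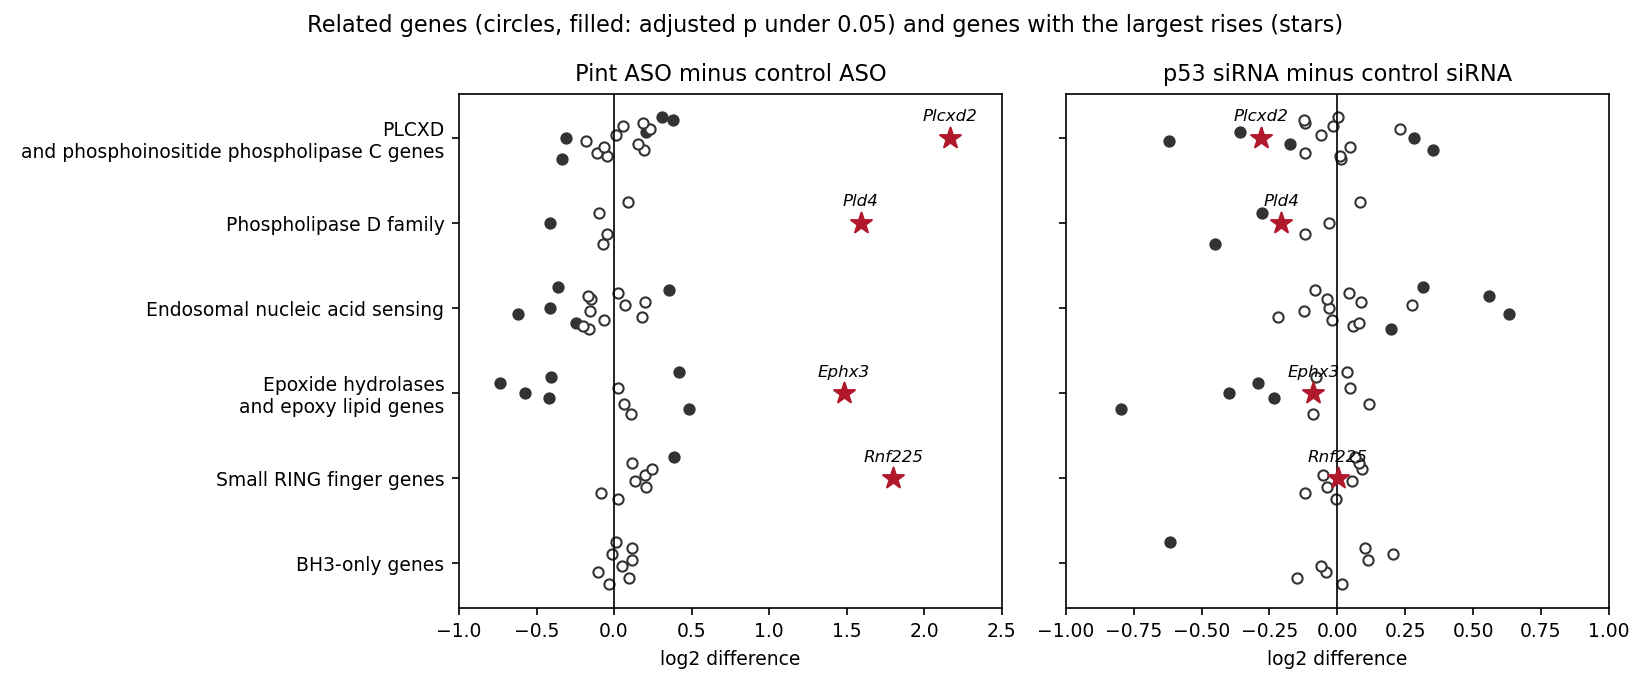
Log2 difference (horizontal axis) of the genes in 6 lists with Pint ASO (left) and p53 siRNA (right), each against its own control, with filled circles for an adjusted p under 0.05 and stars for the gene of interest in each family. With Pint ASO the stars lie at 1.48 to 2.17 and the circles between -0.74 for Ephx1 and 0.48 for Aloxe3. The starred genes were chosen by the size of this rise, so the gap in the left panel is a description.

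Genes beside the 5 loci were examined for shared change. The annotation holds 110 other genes within 250 kb, of which 43 were tested, and 4 were higher and 7 lower with Pint ASO, or 25.6% beside 25.2% of all genes tested. Leaving out single arrays gave 3 to 5 higher and 3 to 7 lower. Their median was 0.01. With p53 siRNA 2 were higher and 9 lower, or 25.6% beside 21.3% of all genes (10.6% in each direction), and 0 to 2 higher and 8 to 10 lower with single arrays left out.

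None of the 3 tested neighbours of Morrbid passed in limma, with Pint ASO (0 with an unadjusted p under 0.05) or with p53 siRNA (2 with an unadjusted p under 0.05). Bcl2l11, at 136 kb, read 9.29 ± 0.00 with Pint ASO (SD, n = 3, the values being identical in the deposited table) and 9.39 ± 0.09 with control ASO (SD, n = 2), a difference of -0.10 (SE 0.06, adjusted p = 0.277). It differed by -0.04 (SE 0.05, adjusted p = 0.666) with p53 siRNA. Acoxl on the same side differed by -0.06 (SE 0.07) with Pint ASO and Anapc1 on the other side by 0.01 (SE 0.06). Among the 8 BH3-only genes, the group of death-promoting proteins to which BIM belongs, none passed with Pint ASO in limma (0 with an unadjusted p under 0.05). Pmaip1, the p53 target NOXA, was lower with p53 siRNA by -0.62 (SE 0.10, adjusted p = 0.0025).

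The 3 tested neighbours of Plcxd2 also did not pass with Pint ASO (0 with an unadjusted p under 0.05), the closest being Phldb2 at 5.66 kb, which differed by 0.14 (SE 0.07, adjusted p = 0.21). Of the 12 beside Rnf225, 1 passed, Zfp324 at 34.8 kb, which was lower with Pint ASO (-0.18, SE 0.05, adjusted p = 0.0424). It was higher with p53 siRNA (0.19, SE 0.05, adjusted p = 0.0223). Those calls were lost without any of 9 and any of 5 arrays (adjusted p up to 0.207 and 0.0833). Zscan22, on the other side at 18.3 kb, differed by 0.08 (SE 0.08, adjusted p = 0.563) with Pint ASO.

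The neighbourhood of Pld4 held most of the called genes. Ahnak2, 3.21 kb away, was lower with Pint ASO by -0.29 (SE 0.07, adjusted p = 0.0133), a call lost without control ASO replicate 2 (-0.24, adjusted p = 0.0941), and Cep170b, 13.9 kb away on the other side, differed by -0.01 (SE 0.05, adjusted p = 0.94). Of 16 genes tested there, 5 were lower, Nudt14 most (-0.66, SE 0.08, adjusted p = 0.000667), with Ahnak2, Siva1 (-0.26), Jag2 (-0.20) and Inf2 (-0.18). The calls of Siva1, Jag2 and Inf2 were lost without any of 3, 6 and 4 arrays (adjusted p up to 0.15, 0.215 and 0.0995). There 2 were higher, the orphan receptor Gpr132 by 0.44 (SE 0.08, adjusted p = 0.00614) and Pacs2, a sorting protein, by 0.27 (SE 0.05, adjusted p = 0.00416). With p53 siRNA 8 of the 16 were lower, among them the Notch ligand Jag2 (-1.40, SE 0.05, adjusted p = 7.73e-07), Cep170b (-0.76, SE 0.04, adjusted p = 4.49e-06) and Ahnak2 (-0.47, SE 0.06, adjusted p = 0.000547).

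Beside Ephx3, Notch3, a Notch receptor 16.9 kb away, was lower in both comparisons. Its difference was -0.41 (SE 0.06, adjusted p = 0.00112) with Pint ASO. With p53 siRNA it was -1.28 (SE 0.05, adjusted p = 9.96e-07). With Pint ASO, Rrp1b was higher by 0.53 (SE 0.06, adjusted p = 0.000414), as was the chromatin factor Wiz by 0.26 (SE 0.05, adjusted p = 0.00977), and the call of Wiz was lost without control ASO replicate 1 (0.24, adjusted p = 0.0643). Akap8, the nearest gene tested on the other side at 114 kb, differed by 0.03 (SE 0.04, adjusted p = 0.713).

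**Figure D4:**
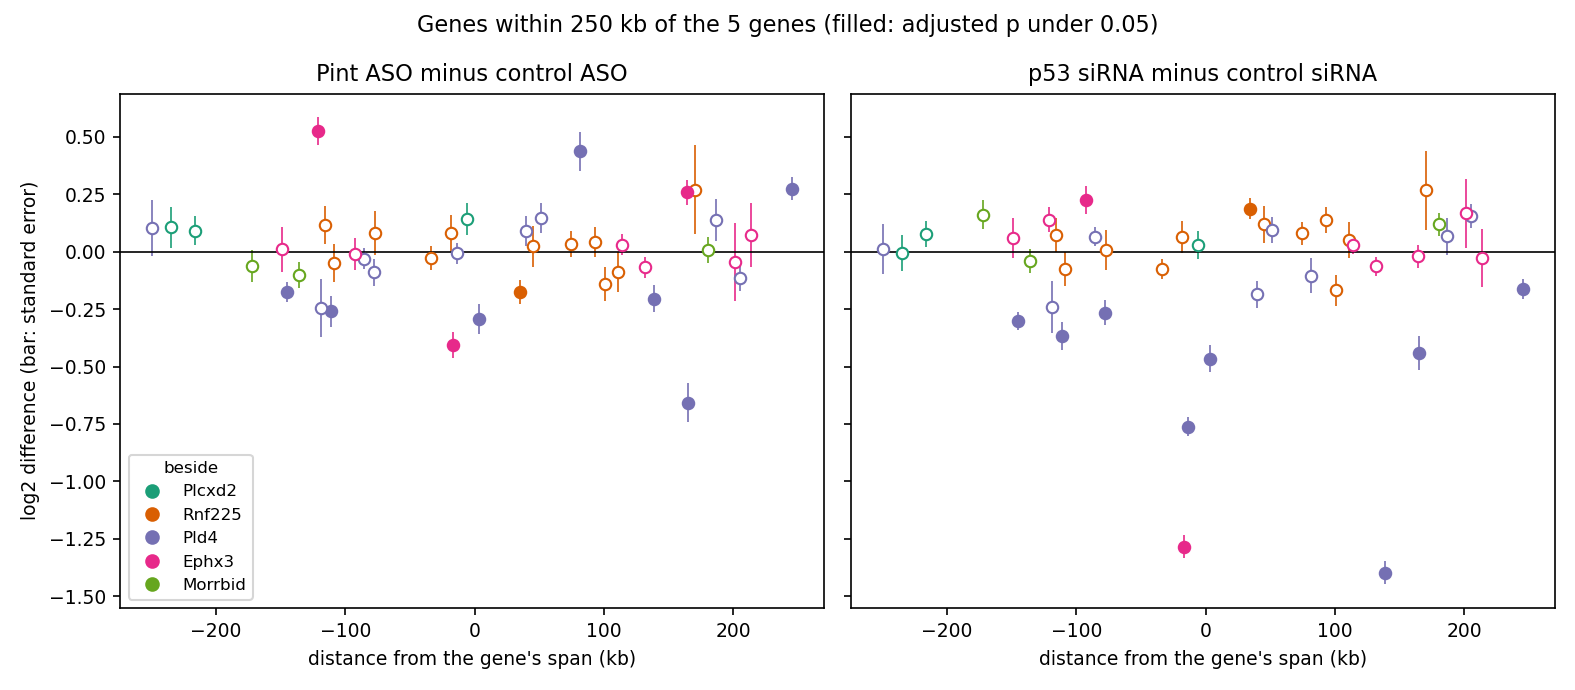
Log2 difference (vertical axis, bars are standard errors) of the 43 tested genes within 250 kb against their distance in kb from the span of the gene they lie beside, with Pint ASO (left) and p53 siRNA (right). Filled circles have an adjusted p under 0.05, no neighbour exceeds 0.53 with Pint ASO (Rrp1b), and the lowest with p53 siRNA are Jag2 (-1.40) and Notch3 (-1.28).

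To find genes that moved like each of the 5, every profile over the 11 arrays was centred on its own mean and compared by root mean square (RMS) difference in log2 units. This distance is set mostly by the size of the Pint ASO rise, which chose the genes, so the profiles named are a description and tend to be those of genes with a rise of like size. Rnf225 was closest to Arc (0.14), then to Ephx3 (0.20) and Csrnp1 (0.22). Ephx3 was closest to Csrnp1 (0.19), Rnf225 (0.20) and the RNA-binding gene Mex3b (0.23), and Pld4 to Csrnp1 (0.19), Hey2 (0.22) and Egr1 (0.23). Arc, Csrnp1 and Egr1 are immediate-early genes, the class set aside in the choice, of which 31 of 43 were higher with Pint ASO and none lower (38 at an unadjusted p under 0.05 in either direction), with a median of 0.43. Morrbid on its first probe set was closest to Nup210l (0.15), Tbc1d9 (0.16) and Brinp1 (0.16), and on its second to Vwce (0.0570), Asxl2 (0.0577) and Gm5627 (0.0610). For Plcxd2, whose rise was the largest, the nearest were Morrbid (0.32), Pld4 (0.34) and Nup210l (0.38).

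Since Pld4 is known from plasmacytoid dendritic cells, Morrbid from myeloid cells and Ephx3 from keratinocytes, markers of those cells were read on the same arrays. In bulk RNA, fewer cells of a type and less RNA per cell cannot be told apart. Of 15 macrophage and blood markers tested, none was higher and 1 lower with Pint ASO (3 at an unadjusted p under 0.05 in either direction), the lysosomal gene Cd68 (-0.47, SE 0.05, adjusted p = 0.000303), and Ptprc and Adgre1 stayed under the filter. The list median was -0.03. Linear intensity was summed over all 17 markers with a probe set, those under the filter included, and Cd68 (log2 9.92 with Pint ASO and 10.39 with control ASO) gives the largest term. The sum was 2533 to 2609 with Pint ASO and 2923 to 2981 with control ASO. It was 2185 to 2209 with p53 siRNA and 2942 to 3016 with control siRNA. With p53 siRNA 2 of the 15 were lower and none higher, with a list median of 0.02. They were Cd68 (-1.04, SE 0.05, adjusted p = 1.41e-06) and Cd14 (-0.51, SE 0.10, adjusted p = 0.00583). Of 7 plasmacytoid dendritic and B cell markers tested, none was higher and 2 lower with Pint ASO (2 at an unadjusted p under 0.05), Bst2 (-0.35, SE 0.05, adjusted p = 0.00118) and Tcf4 (-0.37, SE 0.05, adjusted p = 0.000911), and Cd79a, Ms4a1 and Ccr9 stayed under the filter. The list median was 0.06, and Siglech, Irf8, Cd79b and Flt3 differed by 0.11, 0.13, 0.17 and 0.06 without passing. All 10 markers with a probe set were summed, with Bst2 and Tcf4 as the largest terms. Their sum was 4981 to 5121 with Pint ASO and 6098 to 6351 with control ASO. It was 7173 to 7386 with p53 siRNA and 6229 to 6378 with control siRNA. With p53 siRNA 1 of the 7 was higher, Bst2 (0.62, SE 0.04, adjusted p = 1.69e-05), and none lower, with a list median of 0.03.

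Of 12 epithelial and keratinocyte markers tested, none was higher and 2 lower with Pint ASO (2 at an unadjusted p under 0.05), Cdh1 (-0.68, SE 0.07, adjusted p = 0.000181) and Dsp (-0.32, SE 0.09, adjusted p = 0.0394), the second call lost without any of 7 arrays (adjusted p up to 0.169). Epcam, Esrp1, Grhl2, Ocln and Krt1 stayed under the filter. All 17 markers with a probe set, those under the filter included, summed to 2617 to 2814 with Pint ASO and 2703 to 2805 with control ASO, and to 2661 to 2789 with p53 siRNA and 2836 to 2974 with control siRNA. Of 12 neural markers, 1 was higher and 1 lower with Pint ASO, and they summed to 2409 to 2458 with Pint ASO, 2588 to 2599 with control ASO, 2836 to 2874 with p53 siRNA and 2634 to 2810 with control siRNA. Of 17 fibroblast markers, 12 were lower with Pint ASO (median -0.40), where the 5 genes were high, and 8 were higher with p53 siRNA (median 0.15), where 1 of the 6 probe sets passed, with a lower level. They summed to 71826 to 74132 with Pint ASO and 86576 to 86668 with control ASO, and to 100404 to 101202 with p53 siRNA and 89327 to 91338 with control siRNA. The part of the fibroblast marker shift in the rises described here was not tested.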

How the data were processed

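RNA of 11 samples was hybridized to Affymetrix arrays. The authors used RMA (version not given in the sources used here), which corrects background, normalizes between arrays and summarizes probes, and the deposited table holds its log2 intensity per probe set, so small differences depend on that scaling. Of 34760 probe sets, 21640 carry 1 gene symbol in the platform annotation, 1321 several and 11799 none, and only the first kind was named. Probe sets with log2 over 6 on 2 or more arrays of any group were tested (26038). All 4 groups entered 1 limma 3.58.1 fit (R 4.3.3, empirical Bayes, two-sided), adjusted by Benjamini-Hochberg over all probe sets tested, with calls at an adjusted p under 0.05. The fit was tested on simulated data with independent noise, for p53 siRNA against control siRNA only. Pint ASO against control ASO was not simulated.

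The 5 genes and the gene lists were chosen with earlier results of these data known. Named genes are those 5, the next 2 by rise, called relatives and markers, nearest and called neighbours within 250 kb, and the 3 closest profiles. Groups come from the sample labels, which do not say whether replicates were separate cultures, so the spread behind each p-value may be technical. The number of arrays limits the precision. Same-numbered siRNA arrays did not deviate together (correlations -0.284, -0.181 and -0.0371), and the main fit did not use numbers as pairs. ASO arrays sharing a description number did correlate (0.420 and 0.375), and those sharing a title number did not (-0.0463 and -0.420). With the description number as a block, 2604 probe sets were called with Pint ASO in place of 4985, so the number of Pint ASO calls depends on that choice. Alternatives covered the filter, scaling, moderation, groups fitted, replicate blocks, single arrays left out and the mean of both Morrbid probe sets.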

Additional observations from a re-analysis of the deposited data

Results flagged for a closer look

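Plcxd2 had all Pint ASO arrays above control ASO and all p53 siRNA arrays below control siRNA. The effects, 2.17 and -0.28, differ by 2.45, and this difference was not tested because the gene was chosen on one of them.

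Among the named neighbours and the named genes of the family, sensing and non-coding RNA lists, a further 8 passed in both comparisons with opposite signs. The Pint ASO effect minus the p53 siRNA effect is given for them without a test, because choosing genes called in opposite directions settles its sign. It was 1.28 for Aloxe3, 0.73 for Pvt1, 0.57 for Plcg2 and 0.44 for Pacs2, all higher with Pint ASO. It was -1.26 for Irf7, -0.68 for Unc93b1, -0.59 for Plce1 and -0.36 for Zfp324, all lower with Pint ASO. The p53 siRNA call of Pacs2 (-0.16, adjusted p = 0.0319) was lost without any of 5 single arrays (adjusted p up to 0.115) and without the filter (adjusted p = 0.0513). Calls of Plcg2, Pvt1, Unc93b1 and Zfp324 that single arrays decide are given with their values above. Groups of 2 or 3 arrays are too small for a test of single outlying arrays.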

How the results depend on the processing

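The Pint ASO rises of the 5 genes kept their direction in every alternative run (Plcxd2 2.11 to 2.20, Pld4 1.54 to 1.65, Ephx3 1.43 to 1.52). Leaving out 1 array gave 1.70 to 1.90 for Rnf225 and 1.09 to 1.59 and 0.36 to 0.46 for the probe sets of Morrbid. Control ASO replicate 1 set 1.90, 1.59 and 0.36, and control ASO replicate 2 the other ends. The mean of the Morrbid probe sets gave 0.88. The p53 siRNA effect of Plcxd2 was -0.31 to -0.24 with 1 array left out, that of Pld4 -0.32 to -0.10, and 0 to 2 of the 6 probe sets passed.

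With the replicate number from the titles as a block, Plcxd2 no longer passed (-0.28, adjusted p = 0.0811), so 0 of the 6 did. The block gave 1311 probe sets called with Pint ASO and 2285 with p53 siRNA, in place of 4985 and 4408, and 1 neighbour higher and 2 lower with Pint ASO and 0 higher with p53 siRNA. It gave 17 immediate-early genes higher with Pint ASO in place of 31. Endosomal sensing genes lower with Pint ASO numbered 2 with it or with only the groups compared and 7 with a trended prior, in place of 4. With the descriptions' numbers as a block it was 2604 probe sets with Pint ASO, 2 neighbours higher and 2 lower with Pint ASO, and 0 higher with p53 siRNA. By the descriptions, the ASO arrays of a number correlated at 0.420 and 0.375, and by the titles at -0.0463 and -0.420. As said above, these values do not decide between the numberings. Fitting only the groups compared gave 1890 probe sets with Pint ASO, 2 neighbours higher and 2 lower, and 1 higher with p53 siRNA. Neighbours lower with Pint ASO numbered 4 after a further quantile normalization, and those higher with p53 siRNA 5. Without the filter, or with a trended prior, the last count was 1. Leaving out 1 array gave 3388 to 4737 probe sets called with Pint ASO and 3199 to 4467 with p53 siRNA, 3 to 7 neighbours lower with Pint ASO and 0 to 2 higher with p53 siRNA. The causes were not tested, except that blocks and smaller fits leave fewer degrees of freedom. The dim levels of Pld4 and Ephx3 outside the Pint ASO group limit what can be read there.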
